A study of Mus musculus with 22 samples.

Results

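The 10 genes described here encode the TGF-beta ligand Tgfb1, the receptor chains Tgfbr1 and Tgfbr2, the signal-carrying Smads Smad2, Smad3 and Smad4, the inhibitory Smad Smad7 and the nuclear repressors Ski, Skil and Tgif1. They were chosen by gene name, for their place in the pathway, from the 55291 gene names listed for each RNA library of a mouse study of memory CD4+ T helper 2 cells. Each of the 10 names had 1 row in every library.

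The study followed effector Th2 cells from OT-II creERT2 or DO11.10 mice, whose transgenic T cell receptors recognise ovalbumin (OVA), after intravenous transfer into recipients of the strains C57BL/6 (Ly5.2) and BALB/c-nu/nu that had been sensitized intranasally with OVA, and in the later experiment lung TRM and TCIRC cells of DO11.10 donors were moved on into fresh BALB/c-nu/nu hosts. Tamoxifen was injected to induce Cre-mediated recombination, and OVA was given again later. Cells were sorted at day 49 or day 71 by congenic markers and CD69, a surface receptor that holds lymphocytes in tissue, with 3000 to 50000 cells per population. RNA was measured in 4 groups of 2 libraries, and 14 ATAC-seq samples were not analysed here.

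The RNA groups are named by location, which is tissue or circulating, and by origin, which is ex-TRM or ex-Tcirc, with TRM for tissue-resident memory cells. The design text writes TCIRC without spelling it out and does not define the prefix "ex", so the names are used as the labels give them. All 8 RNA samples carried the same labels of lung, CD4+ T cells, female mice 6 to 10 weeks old and Balb/c host strain, whereas the protocols describe circulating ex-TRM cells as taken from blood. The labels do not say whether an RNA library came from the day 49 or the day 71 experiment, nor whether replicates came from separate animals, so p-values measure the spread between libraries, which may be technical. BALB/c-nu/nu mice lack a normal thymus and so have few T cells of their own, and a receptor-transgenic donor contributes cells of a single antigen specificity.

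TGF-beta binds the type II receptor Tgfbr2, which recruits and phosphorylates the type I receptor Tgfbr1. Tgfbr1 then phosphorylates Smad2 and Smad3, and these join Smad4 and enter the nucleus to regulate genes. Smad7 is induced by the pathway and blocks the receptor, while Ski, Skil and Tgif1 hold Smad complexes in a repressed state. In T cells the pathway restrains activation, takes part in the differentiation of regulatory T cells, and in many CD8+ T cells induces the integrin chain that anchors resident memory cells in epithelium.

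The promoter windows of the ligand and the receptor pair are shown because the results on receptor balance turn on these genes. Each is the 250 bases before the RefSeq transcription start in GRCm38.p6, read 5′ to 3′ on the gene's strand. Tgfb1 is at chr7:25686752-25687001 on the plus strand, Tgfbr1 at chr4:47352972-47353221 on the plus strand, and Tgfbr2 at chr9:116175364-116175613 on the minus strand. Capitals mark matches, on either strand, to the GC box GGGCGG bound by Sp1 or to the CAGAC core of Smad-binding elements.
Tgfb1: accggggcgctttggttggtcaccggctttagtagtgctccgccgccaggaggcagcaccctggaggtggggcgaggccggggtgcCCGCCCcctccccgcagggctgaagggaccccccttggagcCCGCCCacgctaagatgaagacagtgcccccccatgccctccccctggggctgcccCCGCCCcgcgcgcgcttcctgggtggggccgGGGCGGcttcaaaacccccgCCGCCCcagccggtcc
Tgfbr1: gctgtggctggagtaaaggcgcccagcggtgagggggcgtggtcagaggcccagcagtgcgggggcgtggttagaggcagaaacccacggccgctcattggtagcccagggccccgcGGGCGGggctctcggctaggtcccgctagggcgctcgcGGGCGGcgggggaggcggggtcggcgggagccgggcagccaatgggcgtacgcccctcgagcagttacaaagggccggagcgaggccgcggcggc
Tgfbr2: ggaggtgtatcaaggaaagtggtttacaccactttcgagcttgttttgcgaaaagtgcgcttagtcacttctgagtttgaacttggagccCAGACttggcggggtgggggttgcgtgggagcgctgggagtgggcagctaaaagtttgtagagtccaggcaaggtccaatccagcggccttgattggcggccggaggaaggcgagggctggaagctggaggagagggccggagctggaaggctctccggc
The Tgfb1 window held 5 GC boxes and the Tgfbr1 window 2, with GC contents of 75.2% and 74.8%. The Tgfbr2 window held no GC box and 1 CAGAC core, with a GC content of 58.4%. No marked match overlaps another, and the palindrome GTCTAGAC was in none of the 3 windows. Of 32851 RefSeq windows of the same length, 32.7% held GGGCGG, 42.2% held CAGAC and 0.167% held GTCTAGAC, so a match is a description and not a binding site. For Tgfbr1 the table lists 2 starts, and the first was used.

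The libraries differed strongly in depth. Circulating ex-TRM replicate 1 listed 917 gene names above 0 and all 10 genes at 0, and was treated as missing, which leaves 1 circulating ex-TRM library. The other libraries listed 29688 to 37894 names above 0, except circulating ex-Tcirc replicates 1 and 2 with 12785 and 7042. Against tissue ex-TRM replicate 1 set at 100%, relative depth read from the steps of low values was 24.1% to 90.1% in the other tissue libraries, 25.2% in circulating ex-TRM replicate 2, and 8.60% and 4.01% in the circulating ex-Tcirc libraries. Among protein-coding genes whose mean in tissue was 20 to 40 FPKM (fragments counted on a gene, divided by its length and by the library total), 0.589% were listed at 0 in circulating ex-TRM replicate 2, against 24.9% and 61.2% in circulating ex-Tcirc replicates 1 and 2. A listed 0 in the circulating ex-Tcirc libraries is therefore not read as absence. The 10 T cell markers summed to 3812 to 5107 FPKM in all 7 libraries, with 1 and 3 of them at 0 in the circulating ex-Tcirc replicates 1 and 2.

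**Figure D1:**
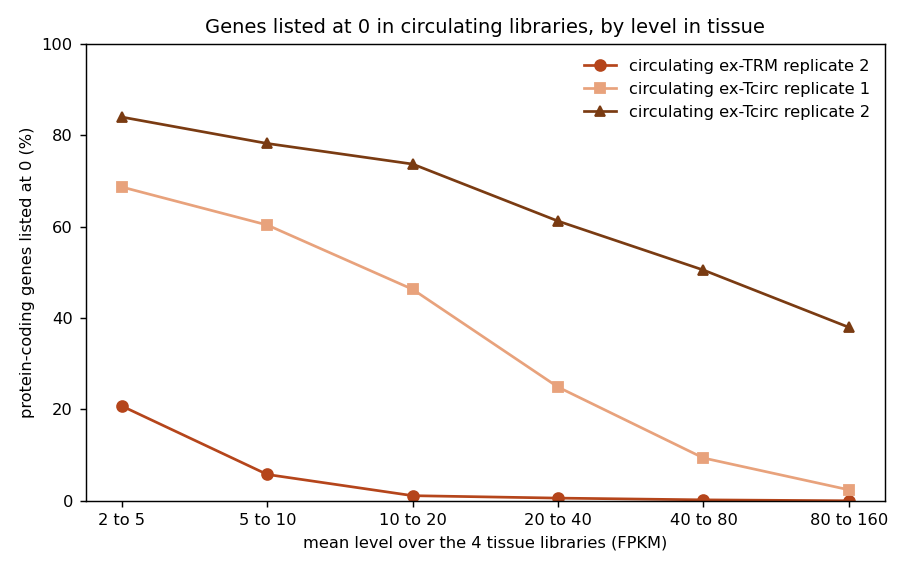
Share of protein-coding genes listed at 0 (y axis, %) in each circulating library, by the mean level of the gene over the 4 tissue libraries (x axis, FPKM bins). At 5 to 10 FPKM in tissue, circulating ex-TRM replicate 2 listed 5.76% of genes at 0, and circulating ex-Tcirc replicates 1 and 2 listed 60.4% and 78.2%.

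The ligand gene Tgfb1 was the highest of the 10 genes in each of the 7 libraries. Its level was 134 and 112 FPKM in the tissue ex-TRM libraries, 82.8 and 113 in tissue ex-Tcirc libraries, 87.5 in circulating ex-TRM cells, and 54.1 and 145 in the circulating ex-Tcirc pair. The groups overlap, and the circulating ex-Tcirc pair alone spans the values of every other library. In the tissue libraries Tgfb1 lay above 98.5% to 99.1% of the protein-coding genes detected. Tissue ex-TRM averaged 123 ± 15.3 FPKM and tissue ex-Tcirc 97.8 ± 21.2 FPKM (SD, n = 2 each). These are bulk values, in which fewer cells of a type and less RNA per cell cannot be told apart. Platelets also store the ligand: the 9 platelet markers summed to 9.03 to 21.6 FPKM in tissue libraries and 2.23 to 5.55 FPKM in circulating ones. Of these markers, the platelet chemokine Ppbp was at 0 in all 7, whereas Itga2b was above 0 in all 7, at 1.23 to 4.62 FPKM. Pf4, another platelet chemokine, was at 2.94 and 0 FPKM in tissue ex-TRM libraries, 10.7 and 3.41 in tissue ex-Tcirc libraries, and 0 in the circulating ones. Other leukocytes make Tgfb1 too, and the 10 myeloid markers summed to 49.9 to 169 FPKM in tissue libraries, 73.8 in circulating ex-TRM, and 744 and 300.4 in circulating ex-Tcirc replicates 1 and 2. In that pair Lyz2 alone made 646 and 255 FPKM of the sum, and 5 and 8 of the 10 markers were at 0. Their part in the Tgfb1 level was not tested.

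**Figure D2:**
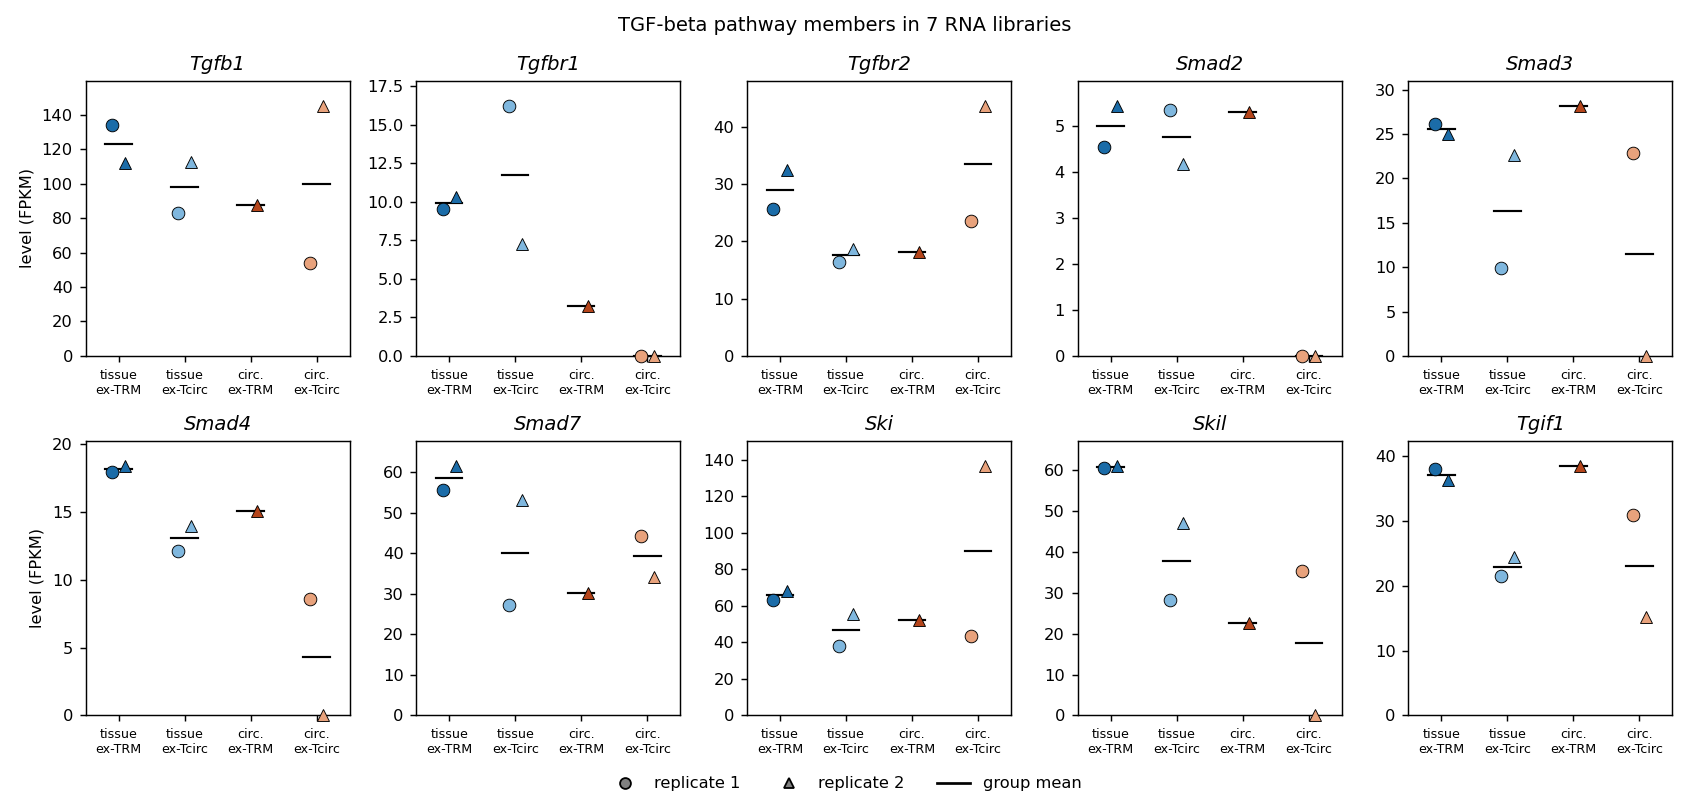
Level (y axis, FPKM) of each of the 10 genes in the 4 groups, with circles for replicate 1, triangles for replicate 2 and bars for group means, circulating ex-TRM being 1 library. Tgfbr1 and Smad2 sit at 0 in the circulating ex-Tcirc pair, and Tgfbr2, Smad4, Ski, Skil and Tgif1 are among the genes with both tissue ex-TRM points above both tissue ex-Tcirc points.

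Tgfbr1, the type I receptor kinase, was the single one of the 9 members at or above the minimum mean of 5 FPKM that passed the test of tissue against circulating cells, where it was higher in tissue. Its level was 9.52 and 10.3 FPKM in tissue ex-TRM libraries, 16.2 and 7.23 in tissue ex-Tcirc libraries, 3.21 in circulating ex-TRM cells, and 0 and 0 in the circulating ex-Tcirc pair. All 4 tissue libraries were above all 3 circulating ones, an order found for 13.1% of the 9096 genes tested, with the opposite order in 6.11%. Among the 6060 of them with protein-coding names the shares were 12.4% and 3.88%. Averaged over both origins, the difference of tissue minus circulating was 2.47 ± 0.35 on the scale of log2(FPKM + 1) (SE), with an adjusted p of 0.0104 from limma with Benjamini-Hochberg adjustment. Of the 9 members tested 1 passed, and of all tested genes 24.8% passed, 23.6% being higher in tissue and 1.23% lower. The value is not a fold, since the circulating ex-Tcirc group is listed at 0. The other 8 members ranged from -0.20 for Ski to 2.01 for Skil, with adjusted p from 0.501 to 0.991 in limma.

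Within ex-Tcirc cells the Tgfbr1 difference was 3.57 ± 0.44 (adjusted p = 0.00473, limma), where 29.0% of all genes passed, 27.4% being higher in tissue and 1.58% lower. Within ex-TRM cells it was 1.37 ± 0.54, with a 95% interval of -0.09 to 2.84 and an adjusted p of 1 from limma. Both tissue ex-TRM libraries were above the circulating ex-TRM library, but the circulating group is 1 library and adds no spread of its own. The difference between these effects was -2.20 ± 0.69 and did not pass (adjusted p = 0.126, limma), where 22.1% of all genes passed, 21.9% with a negative value and 0.187% with a positive one. It passed under 4 of 13 alternatives. With a pseudocount of 0.1 in place of 1 it was -5.18 (adjusted p = 0.0107, limma), and with protein-coding values rescaled to the same sum in each library -4.43 (adjusted p = 0.0129). Without tissue ex-Tcirc replicate 1 or 2 it was -1.67 (adjusted p = 0.0218) or -2.73 (adjusted p = 0.00863, limma). In these 4 fits 24.2% to 31.3% of all genes passed with a negative value. Of the genes that neither circulating ex-Tcirc library detected, 82.2% were called in the averaged comparison, against 3.14% of the other 6600, and Tgfbr1 is of the first kind. Without tissue ex-TRM replicate 1 or 2 the averaged difference was 2.50 or 2.45, with adjusted p of 0.0560 or 0.0600 in limma.

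Tgfbr2, the ligand-binding type II receptor, had its highest value in a circulating library. It was at 25.8 and 32.4 FPKM in tissue ex-TRM libraries, 16.4 and 18.7 in tissue ex-Tcirc libraries, 18.2 in circulating ex-TRM cells, and 23.5 and 43.7 in the circulating ex-Tcirc pair. Both tissue ex-TRM libraries were above the circulating ex-TRM library, as for 38.6% of all tested genes. In contrast, both tissue ex-Tcirc libraries were below both circulating ex-Tcirc libraries, an order that was not counted over all genes. This crossing was not called: the location difference was 0.64 ± 0.51 within ex-TRM (adjusted p = 1) and -0.84 ± 0.42 within ex-Tcirc (adjusted p = 0.262), and their difference was 1.47 ± 0.66 (adjusted p = 0.297, limma). Circulating ex-Tcirc replicate 1 decides that call. Without it, the difference within ex-Tcirc was -1.27 (adjusted p = 0.00843) and the difference between origins 1.91 (adjusted p = 0.00926, limma), resting on the shallowest library alone for that group. In that fit 14.9% of all genes passed within ex-Tcirc with a negative value and 63.0% with a positive one, and 9.08% passed the difference between origins with a positive value.

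The receptor pair was unequally expressed, with Tgfbr2 above Tgfbr1 in every library. Since FPKM is scaled by length, the levels can be set against each other: the ratio of Tgfbr2 to Tgfbr1 was 2.71 and 3.14 in tissue ex-TRM libraries, 1.01 and 2.59 in tissue ex-Tcirc libraries, and 5.68 in circulating ex-TRM cells. The tissue ex-TRM ratios are both above the tissue ex-Tcirc ratios. Tissue ex-Tcirc replicate 1, where the chains are level, also had the highest Tgfbr1 value and the highest B cell markers of the tissue libraries, 395 FPKM summed over 7 genes against 20.7 to 63.2 in the other 3, and its part in the ratio was not tested.

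The receptor-regulated Smads stood at very different levels. Smad2 was at 4.54 and 5.43 FPKM in tissue ex-TRM libraries, 5.34 and 4.17 in tissue ex-Tcirc libraries, 5.30 in circulating ex-TRM cells, and 0 and 0 in the circulating ex-Tcirc pair. It was the lowest of the 10 genes in all 4 tissue libraries and nearly level across them and the circulating ex-TRM library. Its mean over the 7 libraries was under the minimum of 5 FPKM, so it entered only the fit without a minimum. There it was higher in tissue, by 1.22 ± 0.22 averaged over origin (adjusted p = 0.0445, limma) and by 2.52 ± 0.28 within ex-Tcirc (adjusted p = 0.0111), against a group listed at 0. Of the 43037 genes in that fit 8.86% passed with a positive value averaged over origin and 11.4% within ex-Tcirc. Within ex-TRM it differed by -0.08 ± 0.34, with a 95% interval of -0.99 to 0.84.

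Smad3, the other receptor-regulated Smad, was at 26.1 and 25.0 FPKM in tissue ex-TRM libraries, 9.94 and 22.6 in tissue ex-Tcirc libraries, 28.2 in circulating ex-TRM cells, and 22.9 and 0 in the circulating ex-Tcirc pair. The tissue ex-TRM pair was close together and above both tissue ex-Tcirc libraries, while the circulating ex-TRM library was higher still. The ratio of Smad3 to Smad2 was 5.75 and 4.61 in tissue ex-TRM libraries, 1.86 and 5.43 in tissue ex-Tcirc libraries, and 5.32 in circulating ex-TRM cells. The single low ratio is again in tissue ex-Tcirc replicate 1.

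Smad4, the common partner of the receptor-regulated Smads, was at 18.0 and 18.4 FPKM in tissue ex-TRM libraries, 12.2 and 14.0 in tissue ex-Tcirc libraries, 15.1 in circulating ex-TRM cells, and 8.58 and 0 in the circulating ex-Tcirc pair. Replicates of the tissue groups were close, at 18.2 ± 0.323 in tissue ex-TRM and 13.1 ± 1.30 FPKM in tissue ex-Tcirc (SD, n = 2 each), and the groups do not overlap. The ex-TRM minus ex-Tcirc difference in tissue was 0.45 ± 1.15 in limma over 7 libraries (adjusted p = 1) and had an SE of 0.17 in limma over the 4 tissue libraries (adjusted p = 0.700). The larger SE comes with the circulating ex-Tcirc pair, of which 1 library is at 0 and the other is not, and the same holds for Smad3 and Skil.

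Smad7, the inhibitory Smad that is itself a target of the pathway, stood above Smad2, Smad3 and Smad4 in every library. It was at 55.6 and 61.6 FPKM in tissue ex-TRM libraries, 27.3 and 53.1 in tissue ex-Tcirc libraries, 30.3 in circulating ex-TRM cells, and 44.2 and 34.2 in the circulating ex-Tcirc pair. Both tissue ex-TRM libraries were above every other library, including the 3 circulating ones. The differences did not pass in limma: 0.61 ± 0.45 for tissue ex-TRM minus tissue ex-Tcirc (adjusted p = 1), 0.93 ± 0.55 for tissue minus circulating within ex-TRM (adjusted p = 1) and -0.03 ± 0.45 within ex-Tcirc (adjusted p = 0.967). The ratio of Smad7 to Smad3 was 2.13 and 2.46 in tissue ex-TRM libraries, 2.74 and 2.35 in tissue ex-Tcirc libraries, 1.08 in circulating ex-TRM cells, and 1.93 in circulating ex-Tcirc replicate 1. Circulating ex-Tcirc replicate 2 gives no ratio, since Smad3 is listed at 0 there beside Smad7 at 34.2 FPKM.

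In the tissue libraries, Ski and its relative Skil (SnoN), which bind Smad complexes and recruit corepressors, were the most abundant of the 3 repressors. Ski was at 63.2 and 68.5 FPKM in tissue ex-TRM libraries, 38.3 and 55.7 in tissue ex-Tcirc libraries, 52.4 in circulating ex-TRM cells, and 43.3 and 137 in the circulating ex-Tcirc pair. Its circulating ex-Tcirc pair spans all the other libraries except tissue ex-Tcirc replicate 1, which is lower. Ski ranked second among the 10 genes in 6 of 7 libraries.

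Skil was at 60.5 and 61.0 FPKM in tissue ex-TRM libraries, 28.3 and 47.0 in tissue ex-Tcirc libraries, 22.6 in circulating ex-TRM cells, and 35.3 and 0 in the circulating ex-Tcirc pair. Both tissue ex-TRM libraries were above every other library, and Skil shared this order with Smad7, Smad4 and no other member. It held for 12.4% of all tested genes and 17.1% of the protein-coding ones. On the rescaled protein-coding scale Skil and Smad4 kept it, as did 7.03% of 6060 genes. With median-of-ratios factors Skil, Smad4 and Tgif1 had it, as did 10.9% of 9096 genes. Tissue minus circulating within ex-TRM was 1.39 ± 2.24 (adjusted p = 1, limma), and in a fit without the circulating ex-Tcirc libraries 1.39 ± 0.35 (adjusted p = 0.256, limma), where 0 genes passed. The ratio of Ski to Skil was 1.04 and 1.12 in tissue ex-TRM libraries, 1.35 and 1.18 in tissue ex-Tcirc libraries, 2.32 in circulating ex-TRM cells, and 1.23 in circulating ex-Tcirc replicate 1. Skil was thus nearly level with Ski in tissue ex-TRM cells and, of the 6 libraries that list it above 0, lowest relative to it in circulating ex-TRM replicate 2.

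Tgif1, a homeodomain repressor that competes with coactivators on Smad complexes, was at 37.9 and 36.2 FPKM in tissue ex-TRM libraries, 21.5 and 24.4 in tissue ex-Tcirc libraries, 38.5 in circulating ex-TRM cells, and 30.9 and 15.1 in the circulating ex-Tcirc pair. The 3 ex-TRM libraries lay within 36.2 to 38.5 FPKM whether from tissue or circulation, and all were above the 4 ex-Tcirc libraries, of which the circulating pair is the shallowest. Smad3 and Smad4 had the same order, as did 10.1% of all tested genes and 13.9% of the protein-coding ones. No member had it on the rescaled protein-coding scale, where 4.21% of 6060 genes did. Tgif1 alone of the members had it with median-of-ratios factors, as did 3.87% of 9096 genes. Tissue ex-TRM minus tissue ex-Tcirc was 0.67 ± 0.44 with a 95% interval of -0.52 to 1.87 (adjusted p = 1, limma). Tissue minus circulating within ex-TRM was -0.05 ± 0.54, and 0.24 with median-of-ratios factors, so its direction is not set.

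By level, then, the 10 genes fell into an order that most libraries shared. Over the 4 tissue libraries, the share of detected protein-coding genes below each was 95.1% to 97.4% for Ski, 92.5% to 97.0% for Skil, 92.0% to 97.0% for Smad7, 88.5% to 94.2% for Tgif1 and 83.3% to 92.8% for Tgfbr2. It was 69.2% to 90.6% for Smad3, 75.4% to 85.5% for Smad4, 66.0% to 82.9% for Tgfbr1 and 47.2% to 60.9% for Smad2. In each tissue library the ligand, the repressors and the inhibitory Smad ranked above the receptors and the signal-carrying Smads. Neighbours such as Ski, Skil and Smad7 overlap and are not separated by their spread.

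Tissue ex-TRM against tissue ex-Tcirc is the comparison with the best coverage, and it asks whether cells of the 2 labels differ where both were taken from tissue. No member passed, nor did any of the 9096 genes (adjusted p of 0.276 at the lowest in limma, with 98 genes at an unadjusted p under 0.05). The log2 differences were positive for 8 of the 9 members tested, 0.72 for Smad3 and for Skil, 0.69 for Tgfbr2, 0.67 for Tgif1, 0.61 for Smad7, 0.50 for Ski, 0.45 for Smad4 and 0.34 for Tgfb1, and -0.13 for Tgfbr1. All were above the median of all genes, 0.11, except Tgfbr1, and 61.0% of all genes were positive. The intervals are wide, from -0.45 to 1.83 for Tgfbr2 and from -4.27 to 5.70 for Skil. Differences of more than 1 log2 unit either way are therefore within reach for several members in this fit. Its spread is shared by all 7 libraries, and for Smad3, Smad4 and Skil the width comes with the circulating ex-Tcirc pair.

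**Figure D3:**
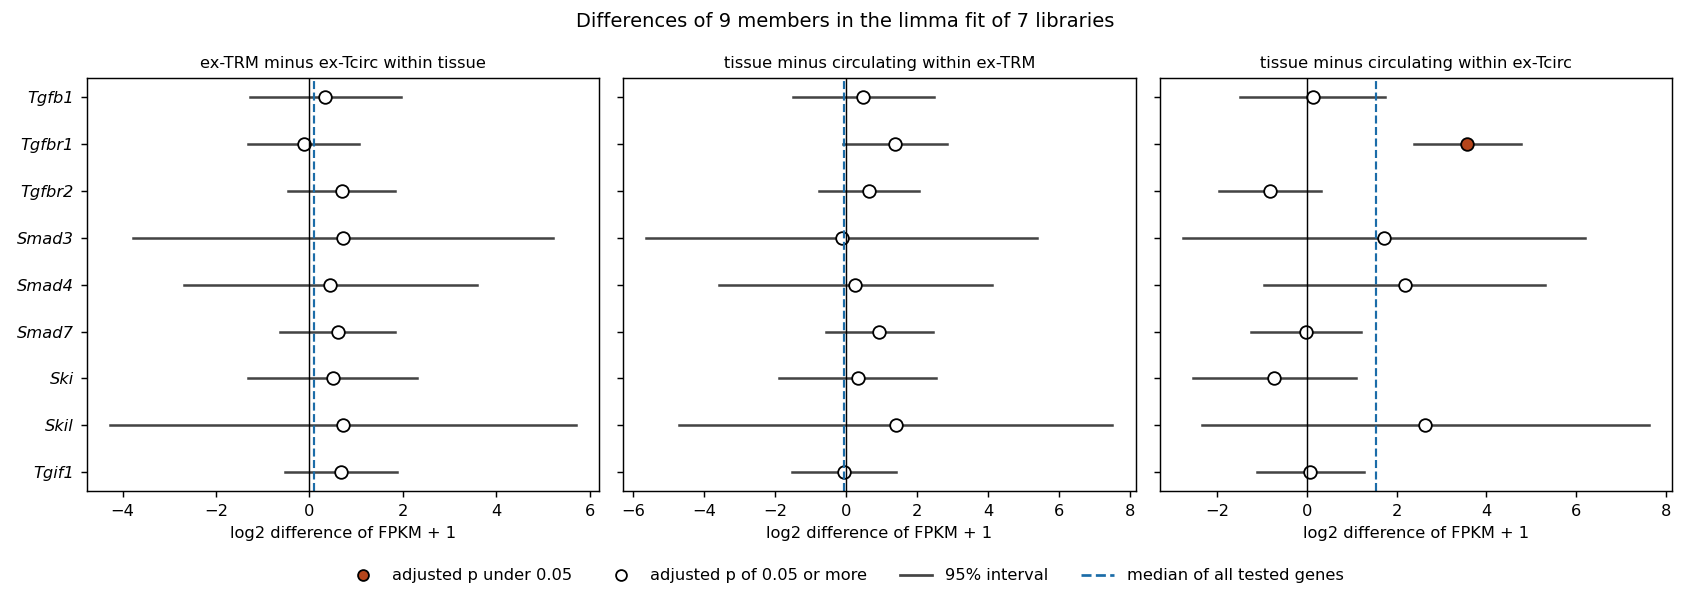
Difference on the log2(FPKM + 1) scale (x axis) for 9 members (y axis) in 3 comparisons, with 95% intervals from limma; filled points have an adjusted p under 0.05 and the dashed line is the median of all 9096 genes. Tgfbr1 within ex-Tcirc, at 3.57, is the single filled point, and most points for tissue ex-TRM minus tissue ex-Tcirc lie right of their dashed line at 0.11.

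In 7 of the 9 members, Tgfbr2, Smad3, Smad4, Smad7, Ski, Skil and Tgif1, both tissue ex-TRM libraries were above both tissue ex-Tcirc libraries. The same order held for 33.0% of all tested genes, and the opposite order, which no member showed, for 10.3%. Among the 6060 protein-coding names, a group that includes all the members, the shares were 42.5% and 5.12%, and the median difference was 0.20. When FPKM was rescaled to the same sum over protein-coding names in each library, the order held for 5 of 9 members (Tgfbr2, Smad4, Ski, Skil and Tgif1) and 17.7% of 6060 genes, with 19.0% in the opposite order. The median difference was then 0.40 for the members and -0.01 for all genes, against 0.61 and 0.11 on the deposited scale. With median-of-ratios factors the same 5 members kept the order, against 21.5% of genes, with 10.6% in the opposite order. Leaving out tissue ex-Tcirc replicate 1, the shallower of its pair and the one with the most B cell markers, brought the difference to 0.17 for Smad3, 0.14 for Smad7, 0.24 for Ski, 0.36 for Skil and 0.12 for Tgfb1. The difference stayed at 0.60 for Tgfbr2, 0.59 for Tgif1 and 0.36 for Smad4. Without tissue ex-Tcirc replicate 2 it was 1.28 for Smad3, 1.08 for Smad7 and for Skil, and 0.76 for Ski.

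**Figure D4:**
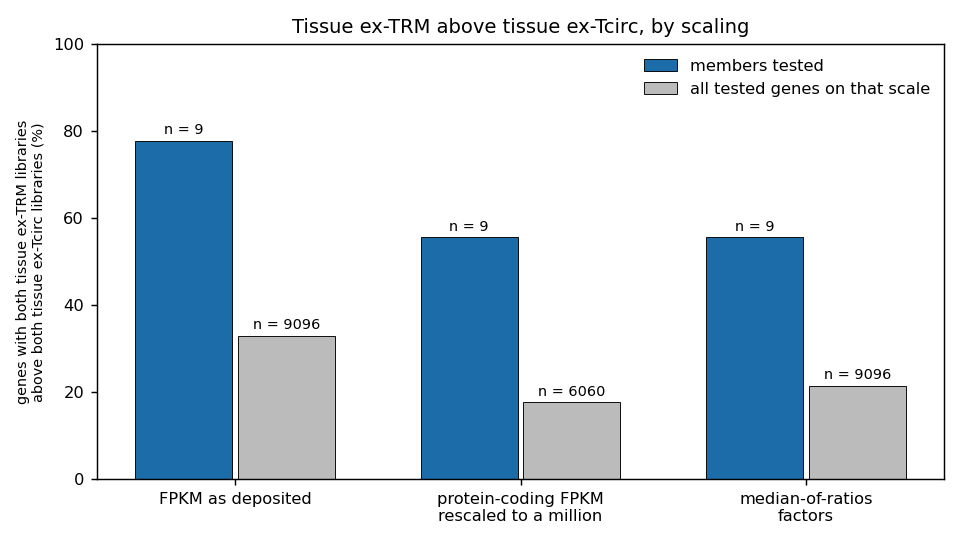
Share of genes (y axis, %) whose tissue ex-TRM libraries both lie above both tissue ex-Tcirc libraries, for the 9 members tested and for all tested genes, on 3 scales (x axis). The members' share is 77.8% as deposited and 55.6% on the other scales, and that of all genes 33.0%, 17.7% and 21.5%.

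For tissue against circulating within ex-TRM, where 0 of 9096 genes passed in limma (358 at an unadjusted p under 0.05), the members' median difference was 0.48 and that of all genes -0.06. Both tissue libraries were above the single circulating library for 7 members, all but Smad3 and Tgif1, and for 38.6% of all genes, and below it for those 2 members and 47.2% of genes. Among protein-coding names the shares were 43.9% above and 42.2% below. With median-of-ratios factors all 9 tested members were above, as were 56.9% of genes, while 29.3% were below. Within ex-Tcirc the members' median was 0.12, against 1.53 for all genes. Both circulating ex-Tcirc libraries detected 5 of the 10 members: Tgfb1, Tgfbr2, Smad7, Ski and Tgif1. Their differences were 0.12, -0.84, -0.03, -0.73 and 0.07, and none passed.

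The members at 0 in just 1 circulating ex-Tcirc library were Smad3, Smad4 and Skil. Within ex-Tcirc they differed by 1.72 ± 1.65, 2.18 ± 1.15 and 2.64 ± 1.83, and did not pass (adjusted p from 0.285 to 0.515, limma). Leaving out replicate 1, so that the library at 0 stands alone for its group, gave 4.01, 3.81 and 5.23 and made all 3 pass, as it did Tgif1 with a positive value and Tgfbr2 and Ski with a negative one, in the same fit in which 63.0% and 14.9% of all genes did. Leaving out replicate 2 instead gave -0.57, 0.55 and 0.05. A single library thus decides these differences.

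Among 67 other genes of the pathway in 4 lists, 27 reached the minimum level. The pathway genes called in tissue against circulating, averaged over origin, were 9 of 27, all higher in tissue, where 23.6% of all genes were: 1 of 3 ligand and activation genes, 2 of 3 receptors, 6 of 15 Smads and cofactors, and 0 of 6 responsive genes. Each of the 9, like Tgfbr1, was at 0 in the circulating ex-Tcirc pair, so none of these differences is a fold. No other tested pathway gene was at 0 in both of these shallow libraries. Of all tested genes at 0 in both, 82.2% were called in this comparison, against 3.14% of the other 6600. The count of 9 therefore follows detection in that pair, and the part of depth in it was not tested. The called genes were Nrros, which anchors latent ligand, the activin receptor Acvr2a, Fkbp1a, which binds the type I receptor, the Smad-sequestering Ldlrad4 and Pmepa1, the ubiquitin ligases Rnf111 and Smurf2, the receptor adaptor Strap and the deubiquitinase Usp9x. The list median was 1.05, against 0.73 for all genes.

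The highest differences of that comparison were in Ldlrad4, Pmepa1 and Rnf111. Pmepa1, a target of the pathway that feeds back on it, was at 14.4 and 14.4 FPKM in tissue ex-TRM libraries, 6.35 and 11.2 in tissue ex-Tcirc libraries, 3.84 in circulating ex-TRM cells, and 0 and 0 in the circulating ex-Tcirc pair. Ldlrad4, another feedback inhibitor, was at 22.6 and 21.1 FPKM in tissue ex-TRM libraries, 12.2 and 21.1 in tissue ex-Tcirc libraries, 8.81 in circulating ex-TRM cells, and 0 and 0 in the circulating ex-Tcirc pair. All 4 tissue libraries were above the circulating ex-TRM library for both genes, as for Tgfbr1. That order was not counted over all genes, and both genes were named for a high difference that uses these same libraries. Within ex-TRM they differed by 1.67 and 1.22 (adjusted p = 1 for each, limma). Rnf111, which removes Smad7, Ski and Skil proteins, differed by 2.27 averaged over origin and by 0.44 within ex-TRM.

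The lowest differences were -0.57 for Tab2, an adaptor of the Smad-independent TAK1 branch, -0.16 for Smad5, a Smad of the BMP branch, and 0.16 for the coactivator Ep300. None of the 3 passed. Ep300 was even across libraries, at 33.4 and 35.8 FPKM in tissue ex-TRM libraries, 28.5 and 33.7 in tissue ex-Tcirc libraries, 30.4 in circulating ex-TRM cells, and 27.7 and 28.4 in the circulating ex-Tcirc pair.

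In tissue ex-TRM against tissue ex-Tcirc, 0 of the 27 pathway genes passed in limma and all 27 differences were positive, with a median of 0.43, against 0.11 and 61.0% positive for all genes, and 0.20 and 72.9% for protein-coding names. On the rescaled protein-coding scale 23 of the 27 were positive, with a median of 0.23 against -0.01 for all genes, and Ep300, Id2, Smad5 and Smurf1 were negative. The highest were 1.16 for P2rx7, the ATP-gated channel, 1.07 for the cell cycle inhibitor Cdkn1a and 0.95 for Usp15, a deubiquitinase of the receptor complex. Usp15 was at 20.1 and 21.7 FPKM in tissue ex-TRM libraries, and 5.64 and 18.3 in tissue ex-Tcirc libraries, so its low value is in the shallower tissue ex-Tcirc library alone. P2rx7 was at 28.8 and 24.3 FPKM in tissue ex-TRM libraries, 10.9 and 11.6 in tissue ex-Tcirc libraries, 22.7 in circulating ex-TRM cells, and 9.96 and 0 in the circulating ex-Tcirc pair. As with Tgif1, all ex-TRM libraries were above all ex-Tcirc libraries, an order held by 10.1% of all tested genes and 13.9% of the protein-coding ones. P2rx7 was named for its tissue difference, which is part of this order, so these shares do not measure how unusual its order is. Its order on the other scales was not counted. The lowest were 0.02 for Smad5, 0.15 for Ep300 and 0.18 for the ubiquitin ligase Smurf1. Itgae, the integrin chain that TGF-beta induces in resident CD8+ T cells, was chosen after its values were seen and reached at most 2.58 FPKM in the tissue libraries and 4.57 in circulating ex-TRM, below the minimum.

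Tgfb1, Tgfbr2, Smad7, Ski and Tgif1 were above 0 in all 7 libraries. For each, the most similar genes were sought by Pearson's r of log2(FPKM + 1) over those libraries. The search covered the 1557 genes that had a mean of at least 20 FPKM and were also above 0 in all 7. Ski was nearest to Abi1 and Gtpbp1 (r = 0.994 for each), and Tgif1 to Sf1 (0.986) and Eed (0.977). Smad7 was nearest to Cdk12 (0.980) and Btg1 (0.935), Tgfb1 to Podnl1 (0.982) and AU020206 (0.977), and Tgfbr2 to Sap25 (0.973) and Pik3r1 (0.939). These values describe 7 libraries that share large differences in depth, and for Ski and Tgfb1 the high value of circulating ex-Tcirc replicate 2 recurs in the similar genes, with 53.5 FPKM for Abi1 in that library against 13.3 to 24.6 in the other 6.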

How the data were processed

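RNA was measured in 8 libraries of 4 groups, and 7 libraries were used. The deposited values are FPKM per gene name, per the file headers. Trim Galore 0.6.7, HISAT2 2.2.1, SAMtools 1.15 and StringTie 3.0.1 and the genome build mm10 are named in the submitters' processing notes, which do not tie tools to assays, and the kit marks strand per the labels' protocols. Neither the annotation nor the strand setting of the counting is given in the labels or headers, so overlapping antisense reads could add to a gene. Read counts are not part of the files, so precision was judged from relative depth, estimated from the steps of low FPKM values.

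Groups and replicate numbers came from the sample titles. Values of repeated gene names were summed, and 39154 of 55291 names (70.8%) matched the RefSeq table that gave protein-coding status and coordinates. The R package limma 3.58.1 (R 4.3.3) was applied to log2 of the deposited FPKM + 1 with group means and an intensity trend over 7 libraries, on the 9096 genes with a mean of at least 5 FPKM, and adjusted p-values (Benjamini-Hochberg) under 0.05 were called. The design gave 5 comparisons, namely tissue minus circulating averaged over origin, within ex-Tcirc and within ex-TRM, ex-TRM minus ex-Tcirc within tissue, and their interaction. These log2 differences understate changes of low genes and are not folds where a group is listed at 0. The fit was tested on simulated data. The alternatives were other pseudocounts, minimums, scalings, libraries and a replicate block.

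The members, gene lists and tests were chosen with earlier results of these data known. All members were named. Pathway genes were named if past the threshold in any comparison, or if among the 3 highest or lowest in the averaged location comparison or the tissue comparison. For each member above 0 in all 7 libraries the 2 most correlated genes were named. Marker lists of other cell types were summed per library. The erythroid markers summed to at most 4.03 FPKM. In tissue libraries of ex-TRM and ex-Tcirc cells and then in circulating libraries of ex-TRM and ex-Tcirc cells, in that order, the epithelial markers reached at most 11.6, 93.3, 34.0 and 623 FPKM, the endothelial 14.4, 30.8, 19.7 and 60.5, the fibroblast 9.02, 34.6, 5.52 and 22.0, the NK and CD8 15.1, 7.54, 9.80 and 22.4, and the B cell 51.8, 395, 37.2 and 257.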

Additional observations from a re-analysis of the deposited data

Results flagged for a closer look

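The location difference of Smad2 differed between origins. In the fit without a minimum level, where Smad2 could be tested, the interaction of location and origin was -2.59 ± 0.44 (adjusted p = 0.0473, limma), from a difference of -0.08 within ex-TRM and 2.52 within ex-Tcirc. Neither circulating ex-Tcirc library listed Smad2 above 0. At 2 to 5 FPKM in tissue, 20.7% of protein-coding genes were at 0 in circulating ex-TRM replicate 2, against 68.7% and 84% in circulating ex-Tcirc replicates 1 and 2, and the part of depth in the difference was not tested. In that fit 3165 of 43037 genes passed the interaction, 6.19% of all with a negative value.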

How the results depend on the processing

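Every location value within ex-Tcirc rests on 2 shallow libraries, and that within ex-TRM on 1 circulating library. Tgfbr1 kept its call in the averaged comparison under 10 of 13 alternatives that tested it. It was lost with all 8 libraries (2.99, adjusted p = 0.140, limma) and without either tissue ex-TRM library, and could not be tested with a mean of at least 20 FPKM or in genes above 0 in all 7 libraries. The fit without circulating ex-Tcirc and the overlap counts and pathway values by scale were chosen after seeing the data. Without circulating ex-TRM replicate 2 only the comparisons within ex-Tcirc and within tissue could be run. The cause of the changes below was not tested.

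Genes called numbered 2259 (averaged location), 2640 (within ex-Tcirc), 0 (within ex-TRM), 0 (tissue origin) and 2013 (interaction). A mean of at least 20 FPKM gave 195, 242, 0, 0 and 4. No minimum gave 4345, 4981, 854, 584 and 3165. Genes above 0 in all 7 libraries gave 0 in each. All 8 libraries gave 0, 1, 0, 0 and 0. A pseudocount of 0.1 gave 35 within ex-TRM, and rescaled protein-coding values gave 24 there and 1 for tissue origin. Leaving out 1 library gave 1349 to 6393, 2270 to 7083, 0 to 0, 0 to 85 and 0 to 6125. Without circulating ex-Tcirc replicate 1 or 2 the averaged count was 6393 or 3949. The 85 came without tissue ex-Tcirc replicate 2, and the interaction count was 0 without tissue ex-TRM replicate 1 or 2. The median of all genes in the averaged comparison was 0.73, and 1.55 on the protein-coding and 0.88 on the median-of-ratios scale.

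Deviations of same-numbered libraries correlated at -0.125, 0.00466 and -0.109 for the 3 pairs of groups, with circulating ex-TRM left out. Whether replicate numbers pair the libraries cannot be decided from these values, since the libraries differ strongly in depth. With a replicate block the counts were 1612, 2413, 0, 0 and 0. The block reversed Tgfbr2 (0.015) and Tgif1 (-0.063) in the averaged comparison and Smad4 within ex-TRM (-0.25), none of them called.

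Other reversals concerned values that were not called. With median-of-ratios factors Tgfbr2 was 0.090 averaged, Smad7 0.065 within ex-Tcirc, Smad3 0.15 and Tgif1 0.24 within ex-TRM, and the Tgif1 interaction 0.073. On the protein-coding scale Tgif1 was -0.14 averaged, -0.29 within ex-Tcirc, 0.0065 within ex-TRM and 0.29 in the interaction, and Tgfb1 -0.24 within ex-Tcirc. With all 8 libraries Tgfbr2 was 0.97 and Ski 1.23 averaged, Smad3 2.30 and Tgif1 2.60 within ex-TRM, and the interaction was 0.58 for Smad3, 0.078 for Smad4, 1.03 for Skil and 2.53 for Tgif1.

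Leaving out 1 library also reversed the members named next. Averaged ranges were -0.050 to 0.65 for Tgfb1, -0.32 to 0.12 for Tgfbr2, -0.35 to 1.94 for Smad3, -0.61 to 0.21 for Ski and -0.24 to 0.26 for Tgif1. Within ex-Tcirc they were -0.58 to 0.82 for Tgfb1, -0.57 to 4.01 for Smad3, -0.50 to 0.44 for Smad7, -1.55 to 0.091 for Ski and -0.42 to 0.57 for Tgif1. For tissue origin Tgfbr1 ranged from -0.66 to 0.41. Interaction ranges were -0.34 to 1.06 for Tgfb1, -4.14 to 0.44 for Smad3, -3.84 to 1.34 for Skil and -0.62 to 0.37 for Tgif1. Without circulating ex-Tcirc replicate 1 the averaged comparison also called Smad3 (1.94), Smad4 (2.03), Ski (-0.61) and Skil (3.31), where 56.9% of all genes passed with a positive value and 13.3% with a negative one.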
